A study of Mus musculus with 6 samples.

Results

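The insulin-like growth factor (IGF) axis was described in inguinal adipose tissue (iAT) of newborn mice through 10 genes taken by symbol from a table of 19831 genes. They were the ligand genes Igf1 and Igf2, the receptor genes Igf1r and Igf2r, and the binding protein genes Igfbp2, Igfbp3, Igfbp4, Igfbp5, Igfbp6 and Igfbp7. All 10 were listed. RNA sequencing had been performed on whole iAT at postnatal day 6. There were 3 samples of wild-type mice and 3 of Npffr1-KO mice, in which the gene of the neuropeptide FF receptor NPFFR1 was disrupted. The study's methods name male C57BL/6 mice, kept under specific pathogen-free conditions, for its 6-day-old animals, without tying them to these samples. The sources used here do not state the strain background of the Npffr1-KO mice, the structure of the disrupted allele, whether the allele was absent from other tissues, or how many animals went into a sample.

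IGF1 and IGF2 are growth factors of the insulin family. Both signal through the tyrosine kinase receptor encoded by Igf1r, whereas the receptor encoded by Igf2r carries IGF2 to lysosomes for degradation and does not signal as a kinase. The IGF binding proteins hold the ligands outside cells, prolong their life and limit or direct their access to the receptor, and proteases release the ligands again. Growth hormone drives Igf1 in liver and in fat. Igf2 is an imprinted gene, expressed from the paternal copy, and its level drops after birth in most mouse tissues. In preadipocytes, IGF1 signaling promotes proliferation and differentiation.

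The table lists 1 value per gene and genotype, a read count scaled by library size (normalized count). The average of both values is the mean over the 6 libraries, but the ratio between them comes from a fitted model that draws the genotypes together for genes with few or variable reads. For 9 of the 10 members no sample values could be had, so no test between genotypes was run for them and their ratios of Npffr1-KO over wild-type have no error from the spread between samples. The ratio of each member stands with an exact (Clopper-Pearson) 95% interval for counting error only. It leaves out the spread between animals, so an interval over animals can be far wider. Reads were not marked by molecular identifiers. A gene was counted as past 1.5-fold when its log2 ratio lay at or beyond 0.585 in either direction, with no claim that such a difference exceeds the spread between animals. Of the 15309 genes whose mean reached 10 normalized counts, 5.89% were past 1.5-fold. Of all genes counted, 2.78% were past it with a higher value in Npffr1-KO and 3.12% with a lower one. The median log2 ratio of these genes was 0.01. All 10 IGF axis genes passed this minimum.

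The normalized counts summed to 23137343 for wild-type and 23640005 for Npffr1-KO. For genes whose mean was at most 60 normalized counts, the whole reads of each library could be worked out from the deposited values, and 6849 of 6850 such genes had exactly 1 solution. The libraries are called a to c within each genotype and were not tied to sample numbers. Npffr1 itself had 1, 0 and 5 reads in the wild-type libraries and 0 in each Npffr1-KO library, where a count of 0 allows up to 3 reads. With so few wild-type reads, and 1 wild-type library also at 0, this count is a weak check of the labels. One Npffr1-KO library stood apart in the muscle creatine kinase gene Ckm, with 215 reads against 1 and 6 in the other Npffr1-KO libraries and 2, 3 and 2 in wild-type. Genes also differed by length. The shortest 1 of 20 length classes, with genes of up to 837 bases, had a median log2 ratio of 0.27, and the longest, from 7431 bases, had one of -0.15. The ratio of each member is therefore also given less the median of its length class, as is that of any other gene named as past 1.5-fold.

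At this age the IGF axis of wild-type iAT was dominated by Igf2 and by the binding proteins. Igf2 had 26720 normalized counts per 1000 bases of gene length, the 99.8th percentile of all genes listed. Igfbp7, whose product binds IGFs weakly and lies around blood vessels, followed at 19275. Igfbp4, which encodes an inhibitory carrier made by preadipocytes and other stromal cells, was at 7843. The order then went on through Igfbp3, the main carrier of IGFs in blood, at 2556, Igfbp5, a carrier that also binds the extracellular matrix, at 2414, and Igf1 at 1175. Igfbp6, a carrier with a preference for IGF2, was at 1102. The receptors lay below the ligands and nearly all carriers, with Igf2r at 432 and Igf1r at 160. Igfbp2, a carrier with roles in fat and bone, was the lowest at 37.6, the 37.7th percentile of all genes per length.

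The highest level exceeded the lowest by 711-fold in wild-type, and the order was the same in Npffr1-KO for all 10 genes. Neighbours in this order were not all separable. Igfbp3 exceeded Igfbp5 by 1.06-fold in wild-type and 1.29-fold in Npffr1-KO, and Igf1 exceeded Igfbp6 by 1.07-fold and 1.22-fold. Igf2 exceeded Igfbp7 by 1.39-fold in wild-type but by only 1.03-fold in Npffr1-KO. These gaps are of the size of the differences between genotypes, and the spread over samples is unknown. The closest of the other neighbours, Igfbp5 and Igf1 in Npffr1-KO, lay 1.41-fold apart. Without division by gene length, 4 of the 10 genes kept their rank in wild-type, so the order belongs to the scale per length.

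**Figure D1:**
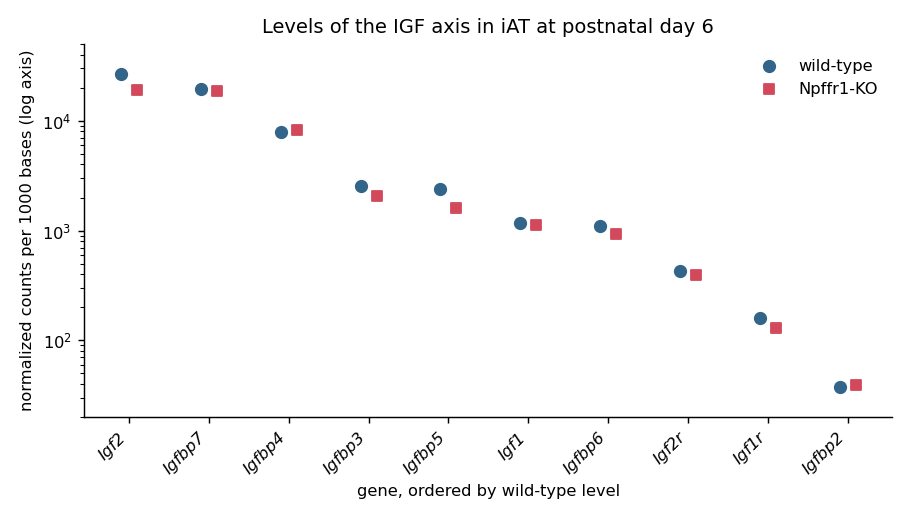
Levels of the 10 IGF axis genes in iAT at postnatal day 6, as normalized counts per 1000 bases of gene length on a log axis, with 1 value per genotype and no error bars because sample values were not given. Igf2 is highest at 26720 in wild-type and 19015 in Npffr1-KO, Igfbp2 is lowest at 37.6 and 39.4, and the order of the genes is the same in both genotypes.

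Across the axis, 8 of the 10 genes had a lower value in Npffr1-KO than in wild-type. Over all genes counted, 48.8% were lower. The median log2 ratio of the 10 was -0.19, with a range from -0.60 to 0.07. Only Igfbp5 was past 1.5-fold, 1 of 10 genes against the background of 5.89%, and a count of 1 in so short a list is not told apart from that background. Most members are highly expressed, and among the 5283 genes whose mean reached 1000 normalized counts, a limit chosen after seeing the data, 2.04% were past 1.5-fold. After subtraction of the length-class medians, the median of the 10 was -0.19, 8 were again below 0, and none was past 1.5-fold, where 5.76% of all genes were. The 8 genes below 0 were not the same ones, since Igf1 and Igf2r moved above 0 and Igfbp2 and Igfbp4 below it.

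**Figure D2:**
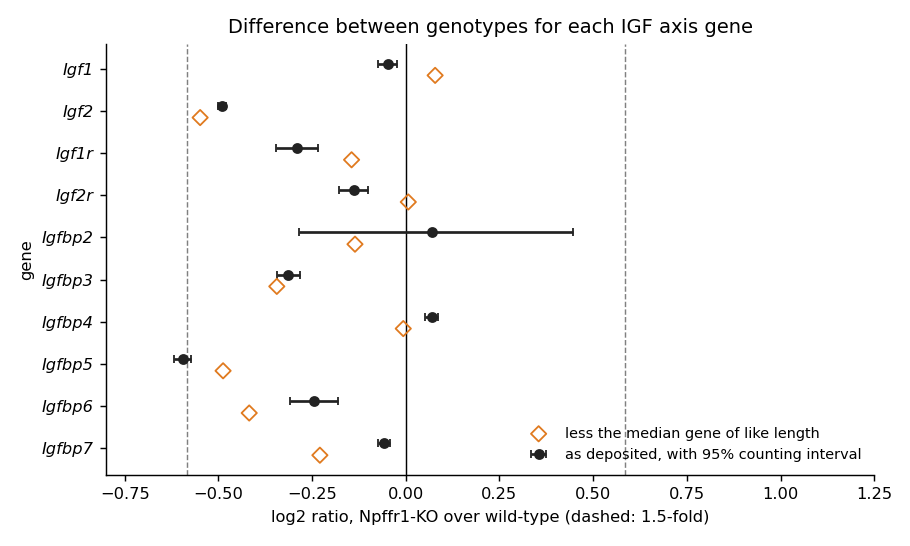
Log2 ratio of Npffr1-KO over wild-type for each IGF axis gene. Filled points with bars show the ratio with its 95% counting interval, open diamonds show the ratio less the median of genes of like length, and dashed lines mark 1.5-fold. Igfbp5 at -0.60 is past the line before length centring and at -0.49 short of it after centring, while Igf2 goes from -0.49 to -0.55.

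Of the ligands, Igf2 was lower in Npffr1-KO and Igf1 was nearly level. Igf2 had 57714 normalized counts in wild-type iAT and 41073 in Npffr1-KO, a ratio of 0.712 with a counting interval from 0.706 to 0.717. The log2 ratio of -0.49 stood at the 4.97th percentile of all genes counted, and at the 3.66th within its length class. Igf2 thus lay among the lower genes of the table without passing 1.5-fold. Igf1 had 8334 normalized counts in wild-type iAT and 8058 in Npffr1-KO, a ratio of 0.967 with a counting interval from 0.950 to 0.984. Its log2 ratio was -0.05, and 0.08 after length centring, so no direction can be given. Per length, Igf2 exceeded Igf1 by 22.7-fold in wild-type and by 16.7-fold in Npffr1-KO.

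Igf2 can be read from several transcription starts, and 4 are listed for it by RefSeq on GRCm38.p6. The 250 bases before the most downstream one, chr7:142657497-142657746 on the minus strand, are shown because Igf2 was the most abundant member and had the largest drop in counts. Capitals mark GGGCGG, the core of a GC box bound by Sp1-type factors, and CCAAT, the CCAAT box, each searched on both strands, so that ATTGG is CCAAT on the other strand.
Igf2: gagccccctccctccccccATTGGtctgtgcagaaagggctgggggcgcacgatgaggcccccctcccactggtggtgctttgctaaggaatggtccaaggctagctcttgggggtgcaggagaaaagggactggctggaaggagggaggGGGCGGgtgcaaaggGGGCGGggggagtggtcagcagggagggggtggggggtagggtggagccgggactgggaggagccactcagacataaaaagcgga
This stretch holds GGGCGG at 2 places and CCAAT at 1. Of the other Igf2 starts, only the third listed had a match to either, GGGCGG at 1 place. Of the 14 starts listed for the 10 genes, 6 had GGGCGG, against 32.7% of all 32851 promoters of the same length, 3 had CCAAT against 33.8%, and 2 had TATAAA against 12.4%. The matches describe letters only, and the table does not say which start was used.

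The reading of Igf2 has a limit of its own. In the transcript models at hand, 61.9% of the 31-base sequences of Igf2 also belong to Gm49394, a read-through gene that was not listed in the table. A further 1.22% are shared with the opposite strand of Igf2os, the antisense gene of the locus. Whether the counting used strand was not given in the sources used here, so reads of Igf2 and Igf2os cannot be told apart where both genes overlap. Igfbp4 shared 5.78% of its sequences with other genes on the same strand. Igfbp7 shared 4.57% with the opposite strand of Polr2b, and the remaining members shared at most 0.24% on the same strand.

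Both receptor genes had lower values in Npffr1-KO, by less than 1.5-fold. Igf1r, encoding the receptor that signals for both ligands, had 1918 normalized counts in wild-type iAT and 1568 in Npffr1-KO, a ratio of 0.817 with a counting interval from 0.786 to 0.850. Igf2r, encoding the receptor that clears IGF2, had 3861 and 3506, a ratio of 0.908 with an interval from 0.884 to 0.932. These are the longest members, with 11978 and 8948 bases, in the length class whose median was -0.15. Relative to that median, Igf1r was at -0.14 and Igf2r at 0.01 on the log2 scale. The lower value of Igf2r was thus that of a typical gene of its length, and that of Igf1r stood at the 23.9th percentile of its class. Igf2r exceeded Igf1r by 2.69-fold per length in wild-type and by 2.99-fold in Npffr1-KO.

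**Figure D3:**
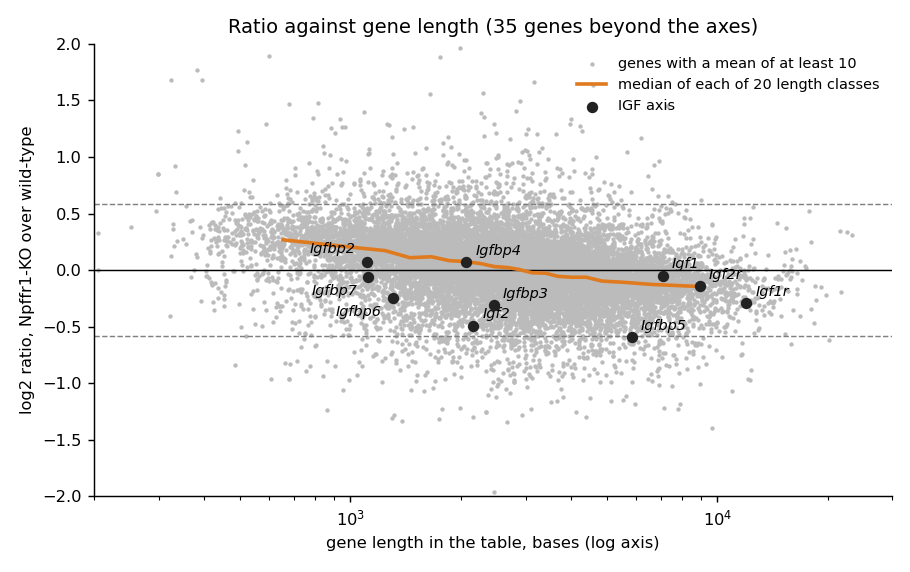
Log2 ratio of Npffr1-KO over wild-type against gene length on a log axis for all genes whose mean reached 10 normalized counts (grey), the median of each of 20 length classes (line) and the 10 IGF axis genes (black, named). The medians fall from 0.27 for the shortest class to -0.15 for the longest, and Igf2r lies on the line while Igf2 and Igfbp5 lie well below it.

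Among the 6 binding protein genes, 4 had lower values in Npffr1-KO and 2 had higher ones, and only Igfbp5 was past 1.5-fold. Over all genes counted, 48.8% were lower and 5.89% were past 1.5-fold in either direction. Less the medians of their length classes, all 6 were below 0, Igfbp4 by only 0.01, and none was past 1.5-fold. Igfbp5 had 14132 normalized counts in wild-type iAT and 9353 in Npffr1-KO, a ratio of 0.662 with a counting interval from 0.652 to 0.672. Its log2 ratio of -0.60 stood at the 2.97th percentile of all genes counted and, with a length of 5854 bases, at the 3.66th of its class. Igfbp5 lay just beyond the 1.5-fold limit, and the member nearest to the limit without reaching it was Igf2 at -0.49. Igfbp3 had 6279 normalized counts in wild-type iAT and 5052 in Npffr1-KO, a ratio of 0.805 with an interval from 0.788 to 0.822. Igfbp6 had 1439 and 1213, a ratio of 0.843 with an interval from 0.807 to 0.882. Igfbp6 is a short gene, and its log2 ratio went from -0.25 to -0.42 when set against genes of like length, whereas Igfbp3 went from -0.31 to -0.34.

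The most abundant carriers, Igfbp7 and Igfbp4, were close to level before length centring. Igfbp4 had 16228 normalized counts in wild-type iAT and 17021 in Npffr1-KO, a ratio of 1.05 with a counting interval from 1.04 to 1.06. Igfbp7 had 21588 and 20750, a ratio of 0.961 with an interval from 0.951 to 0.972. Less the medians of their length classes, Igfbp4 was at -0.01 and Igfbp7 at -0.23. Per length, Igfbp7 made up 58.0% of the summed level of the 6 binding protein genes in wild-type and 59.0% in Npffr1-KO, Igfbp4 made up 23.6% and 26.2%, and Igfbp5 made up 7.26% and 5.09%. Igfbp4 thus exceeded Igfbp5 by 3.25-fold in wild-type and by 5.15-fold in Npffr1-KO.

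Igfbp2 was the only member with few enough reads for the libraries to be separated. It had 44, 35 and 48 reads in the wild-type libraries a to c and 43, 48 and 38 in those of Npffr1-KO. The genotypes overlapped, although wild-type library b lay below all Npffr1-KO libraries. After scaling by library size, the mean was 41.5 ± 6.75 normalized counts in wild-type libraries and 43.8 ± 4.04 in Npffr1-KO (SD, n = 3 libraries each), a log2 ratio of the means of 0.08. Leaving out 1 library at a time, it ranged from -0.04 to 0.19, and it was 0.12 without Npffr1-KO library a, the one with many Ckm reads. A difference was not detectable at this depth, and the counting interval of the ratio, from 0.821 to 1.36, leaves room for a change of either sign.

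Igfbp2 and Igfbp5 lie next to each other on mouse chromosome 1, with 0 protein-coding genes between them in RefSeq, and are read toward each other. Igfbp5 exceeded Igfbp2 by 64.3-fold per length in wild-type and by 40.5-fold in Npffr1-KO. The 250 bases before their starts on GRCm38.p6 are shown because these neighbours differ in level, and because Igfbp5 was the only member past 1.5-fold before length centring. The stretch of Igfbp2, of whose 2 listed starts the first is given, lies at chr1:72824230-72824479 on the plus strand, and that of Igfbp5 at chr1:72874866-72875115 on the minus strand. Capitals mark GGGCGG on either strand.
Igfbp2: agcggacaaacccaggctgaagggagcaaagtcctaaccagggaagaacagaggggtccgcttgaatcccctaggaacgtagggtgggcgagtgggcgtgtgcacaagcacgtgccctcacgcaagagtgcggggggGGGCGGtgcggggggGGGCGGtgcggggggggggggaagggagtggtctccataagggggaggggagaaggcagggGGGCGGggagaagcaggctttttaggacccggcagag
Igfbp5: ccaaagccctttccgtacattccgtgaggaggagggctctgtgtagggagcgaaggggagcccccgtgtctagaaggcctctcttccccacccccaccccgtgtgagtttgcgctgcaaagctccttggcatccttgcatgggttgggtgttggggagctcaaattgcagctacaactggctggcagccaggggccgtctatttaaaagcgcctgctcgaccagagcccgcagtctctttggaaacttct
The Igfbp2 stretch holds GGGCGG at 3 places and 14 CG pairs. The Igfbp5 stretch holds none of the letters searched and 10 CG pairs. The second Igfbp2 start, not shown, has no GGGCGG and 11 CG pairs, so the contrast depends on the start chosen. The median over the 14 starts of the members was 12.5 CG pairs, against 6 over all promoters.

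The table also listed 3 carrier or carrier-like genes outside the 10. Igfbp1, a carrier made by liver, had 1 read in Npffr1-KO library b and 0 in the other 5 libraries, and Igfbpl1 had 0, 2 and 3 reads in wild-type and 8, 2 and 5 in Npffr1-KO. Both were below the minimum of 10 normalized counts, and the reads of Igfbpl1 overlapped at 2. Igfals, which encodes the acid-labile subunit that joins IGF and IGFBP3 in a large complex in blood, had 779 normalized counts in wild-type iAT and 1035 in Npffr1-KO, a log2 ratio of 0.41.

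The other genes of the pathway were followed in 6 lists of 49 genes, of which 48 were listed and 44 reached a mean of 10 normalized counts. Of these 44, 1 was past 1.5-fold higher and 4 were past it lower, against 2.78% and 3.12% of all genes counted. Their median log2 ratio was -0.06, and 0.03 after length centring. The 4 lower genes were 3 of the 5 counted genes of the Igf2 RNA and locus list and 1 protease gene, and the higher gene was an adaptor.

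In the Igf2 RNA and locus list all 5 counted genes had lower values in Npffr1-KO, against 48.8% of all genes counted. Their median log2 ratio was -0.73. After length centring, 4 of the 5 were below 0 and the median was -0.58. H19, the maternally expressed non-coding RNA that lies next to Igf2 on chromosome 7 and shares its imprinting control, had 89449 normalized counts in wild-type iAT and 52453 in Npffr1-KO, a ratio of 0.586 with a counting interval from 0.583 to 0.590. Its log2 ratio was -0.77, and -0.83 after length centring. Igf2 and H19 are transcribed from opposite parental copies, and both were lower in Npffr1-KO here. Per length, H19 exceeded Igf2 by 1.46-fold in wild-type and by 1.21-fold in Npffr1-KO. Igf2os had 125 and 83.9 normalized counts, a log2 ratio of -0.57 just short of the limit. It was named after its values were seen because it overlaps Igf2.

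The Igf2 mRNA binding proteins bind and stabilize mRNAs including that of Igf2. Of these 3 genes, Igf2bp1 and Igf2bp2 were past 1.5-fold with lower values in Npffr1-KO, and Igf2bp3 was nearly level. Igf2bp2 had 711 normalized counts in wild-type iAT and 399 in Npffr1-KO, a log2 ratio of -0.83, and -0.77 after length centring. Igf2bp3 had 689 and 675, a ratio of 0.979 with a counting interval from 0.920 to 1.04. Its log2 ratio was -0.03, and 0.03 after length centring, so no direction can be given. Igf2bp1 had few enough reads to be separated by library, with 70, 58 and 83 reads in wild-type and 41, 44 and 31 in Npffr1-KO. All 3 Npffr1-KO libraries were below all 3 wild-type ones, a pattern shown in that direction by 9.88% of the 2327 genes with a mean from 10 to 60, while 6.15% showed the reverse. The scaled means were 68.9 ± 12.8 in wild-type and 39.2 ± 5.29 in Npffr1-KO (SD, n = 3 libraries each). The log2 ratio of these means was -0.81, while the deposited values gave -0.73, and -0.581 after length centring, just short of the limit of 0.585. With 3 libraries against 3, the smallest p an exact permutation test can give is 0.1, so none was run. Ins2, the insulin gene next to Igf2, had 1, 0 and 3 reads in wild-type and 5, 2 and 1 in Npffr1-KO.

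Of the proteases and stanniocalcins, Pappa2, a metalloproteinase that cleaves IGFBP3 and IGFBP5, was past 1.5-fold with 68.6 normalized counts in wild-type iAT and 41.8 in Npffr1-KO. By library it had 32, 86 and 100 reads in wild-type and 53, 36 and 27 in Npffr1-KO. The genotypes overlapped, since wild-type library a was as low as the Npffr1-KO libraries. The deposited values gave a log2 ratio of -0.71, and of -0.57, short of the limit, after length centring. The log2 ratio of the scaled means was -0.88, and it was -0.56, short of the limit, without wild-type library c. Pappa, which cleaves IGFBP4, was level with 13, 15 and 13 reads against 10, 17 and 11. Htra1, a serine protease that also cuts IGF carriers, had 4319 and 4453 normalized counts, and Stc1, a stanniocalcin and inhibitor of pappalysins, had 178 and 213.

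**Figure D4:**
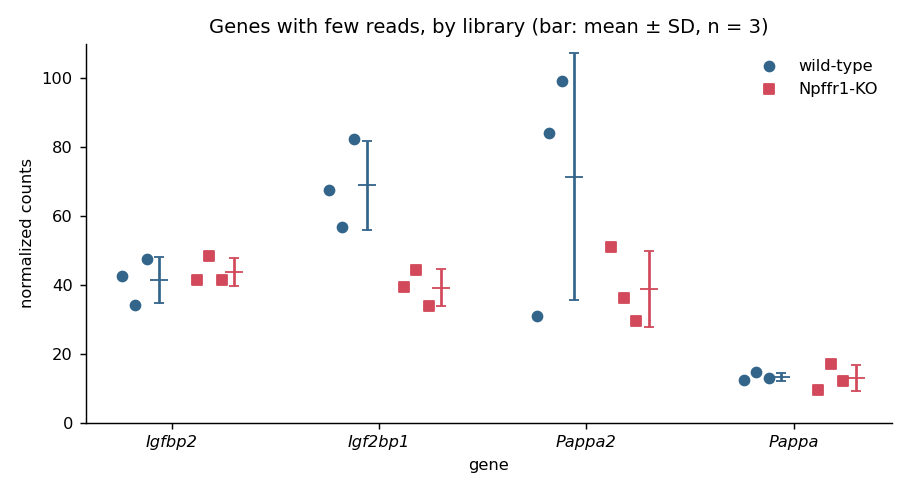
Normalized counts per library for the genes with few reads that are carriers (Igfbp2), Igf2 mRNA binding proteins (Igf2bp1) or proteases (Pappa2, Pappa), with 3 libraries per genotype and the mean ± SD beside them. The Npffr1-KO libraries lie below all wild-type libraries for Igf2bp1 and overlap with them for the others.

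Growth hormone input genes stayed within 1.5-fold in all 6 cases. With 5.89% of all genes counted past 1.5-fold, so short a list without any is not told apart from that background. Ghr, the growth hormone receptor, had 13050 normalized counts in wild-type iAT and 10444 in Npffr1-KO, a log2 ratio of -0.32, and Stat5b, its transcription factor, had 1953 and 1911. The list median was -0.03, and 0.07 after length centring.

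In the insulin receptor family and adaptors, 1 of 8 counted genes was past 1.5-fold, against 5.89% of all genes counted. This was Grb14, an adaptor that inhibits the insulin receptor, with 367 normalized counts in wild-type iAT and 748 in Npffr1-KO. Its ratio was 2.04 with a counting interval from 1.90 to 2.19, and its log2 ratio was 1.03, and 0.95 after length centring. Grb14 thus went the opposite way from 8 of the 10 members of the axis. The related adaptor Grb10, an imprinted inhibitor of the IGF1 and insulin receptors, had 5722 and 4804 normalized counts, a log2 ratio of -0.25. Shc1, which links these receptors to Ras, had 2920 and 2810. Irs4 had 2, 1 and 1 reads in wild-type and 7, 1 and 4 in Npffr1-KO, which overlap. Among genes named after their values were seen, Irs1, the main docking protein of both receptors, was at -0.52 on the log2 scale and the insulin receptor gene Insr at -0.41, and at -0.37 and -0.26 after length centring.

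In the PI3K-Akt-mTOR cascade, which carries the signal to growth and metabolism, none of the 19 genes was past 1.5-fold. The median log2 ratio was -0.06, and 0.04 after length centring, so no direction can be given for the list. Since 5.89% of all genes counted were past 1.5-fold, the absence of any in a list of 19 is not told apart from that background. Akt1, the more general of the Akt kinases, had 7757 normalized counts in wild-type iAT and 7484 in Npffr1-KO. Akt2, the form that serves insulin in fat, had 7351 and 8831, a log2 ratio of 0.26. The lowest of the list, Pik3r1, a regulatory subunit of PI3-kinase, was at -0.48, and at -0.37 after length centring, and was likewise named after its values were seen.

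**Figure D5:**
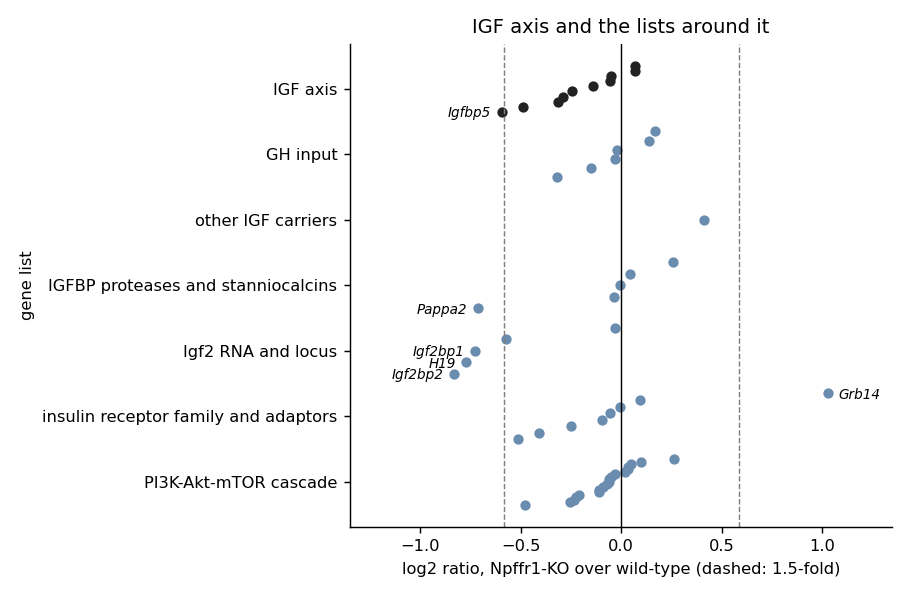
Log2 ratio of Npffr1-KO over wild-type for the IGF axis (black) and the genes of 6 lists around it (blue) whose mean reached 10 normalized counts, 1 point per gene. Names stand beside genes past 1.5-fold (dashed lines), which are Igfbp5, Pappa2, Igf2bp1, H19 and Igf2bp2 on the lower side and Grb14 on the higher side.

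The IGF genes are expressed by several cell types of iAT, and in a whole tissue fewer cells of a type and less RNA per cell cannot be told apart. The adipocyte genes Fabp4 and Adipoq were at 156285 and 37027 normalized counts in wild-type, so the tissue held the markers of its label. Some cell type markers moved in the direction of Igf2 and Igfbp5. The share of all genes counted with a lower value in Npffr1-KO was 48.8%. All 5 endothelial markers had lower values in Npffr1-KO, with log2 ratios from -0.44 to -0.28, among them Cdh5 and Pecam1 at -0.37 and -0.28. Of 6 adipose progenitor markers 5 were lower, with a range from -0.37 to 0.01, among them Col1a1 and Dcn at -0.36 and -0.30, and all 5 mural and smooth muscle markers were lower, from -0.55 to -0.09. Summed over each list, the normalized counts were 59973 in wild-type and 46805 in Npffr1-KO for endothelial markers, and 332043 and 261124 for progenitor markers. The ratios of Igf2 and Igfbp5 lay below the range of both the endothelial and the progenitor list, and those of Igfbp3 and Igf1r lay within it. Against the mural and smooth muscle list, Igf2 lay within the range only through the lowest marker, with the next at -0.19, and Igfbp5 below it. Set against genes of like length, the lowest endothelial marker was at -0.55 and the next at -0.33. Igf2 and Igfbp5, then at -0.55 and -0.49, lay within the endothelial range only through that lowest marker. The lowest progenitor marker was then at -0.38 and the lowest mural and smooth muscle marker at -0.43, both above Igf2 and Igfbp5. The part of these cells in the ratios was not tested.

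Other markers went the other way or not at all. All 5 lymphocyte markers had higher values in Npffr1-KO, from 0.25 to 0.77, of adipocyte markers 5 of 6 were higher, from -0.07 to 1.05, and of macrophage markers 3 of 5 were higher, from -0.07 to 0.48. The 4 proliferation genes ranged from 0.01 to 0.25. Less the medians of their length classes, lymphocyte markers ranged from 0.16 to 0.66 and macrophage markers from -0.01 to 0.31. Adipocyte markers then ranged from -0.24 to 1.07, and 2 of the 6 were below 0, Fabp4 at -0.12 and Adipoq at -0.24. The proliferation genes then ranged from -0.04 to 0.36. The 4 counted skeletal muscle markers ranged from 0.47 to 1.26, and from 0.20 to 1.16 after length centring. Among them only Ckm could be separated by library, and it had 215 reads in Npffr1-KO library a. Its log2 ratio of library means was 4.97, and 0.73 without that library. Myh4, which marks fast muscle fibers, had 1 read in Npffr1-KO library a and 0 in the other 5 libraries. Hepatocyte and keratinocyte markers summed to 466 and 88.4 normalized counts in wild-type and to 476 and 82.4 in Npffr1-KO. Of the lists in this paragraph, only the keratinocyte one had a lower sum in Npffr1-KO. Most of this sum was Krt10 (79.4 for wild-type, 72.4 for Npffr1-KO), the only keratinocyte marker to reach the minimum of 10. Krt5, Krt14 and Krt1 went the other way, at 0.05, 0.25 and 0.23 on the log2 scale. By library, Krt5 had 0, 0 and 11 reads in wild-type and 21, 0 and 0 in Npffr1-KO. Krt14 had 0, 0 and 6 against 11, 1 and 1, and Krt1 had 1, 0 and 1 against 0, 1 and 4. Npffr1-KO library a, with the many Ckm reads, also held most Krt5 and Krt14 reads of its genotype.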

How the data were processed

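Whole iAT RNA had been extracted with TRIZOL and sequenced from 3 wild-type and 3 Npffr1-KO samples, grouped by their labels. The authors deposited normalized read counts (signal values, scaled by library size) as 1 value per gene and genotype. Bowtie2, RSEM and DESeq2 are named in the submitters' processing notes. Their versions, the genome build and the strand setting were not given in the sources used here. The table also holds the authors' fold changes and p-values with their direction, which were not used. A second, filtered table repeats rows of the first and was not used.

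The members and lists were chosen with earlier results of these data known. Ratios of both values were taken for genes with a mean of at least 10, without a pseudocount, and centred on the medians of 20 length classes as an alternative. No test between genotypes was run. Intervals used reads recovered as value times size factors (0.916 to 1.04), at 95% confidence, and are approximate because the values are model fits. Single-read values of 6 libraries gave whole reads per library where the mean was at most 60. The limit of 25 was raised to 60 after seeing the data. The search was tested on simulated data (194 of 194 genes recovered). Among genes with whole reads worked out, 4792 had a log2 ratio past 0.1, and their reads all had the direction of the deposited values. The check does not cover genes with a higher mean. Named genes were the members, Npffr1, list genes past 1.5-fold, up to 2 of the most abundant genes of each list, and list genes with recovered reads. Promoter sequences and gene neighbours came from RefSeq (GRCm38.p6), transcript models from GENCODE. Python 3.11.15 with pandas 2.3.3 and scipy 1.17.1 was used.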

Additional observations from a re-analysis of the deposited data

How the results depend on the processing

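The members past 1.5-fold numbered 1 in the main count, 2 past a log2 ratio of 0.32, and 0 at 2-fold or after length centring. Their median log2 ratio was -0.19, and it was -0.20 after centring on the median gene and -0.19 after centring on length. Of 40 single ratios under the alternatives, 4 changed sign, all by length centring (Igf1, Igf2r, Igfbp2, Igfbp4). Of all genes, 5.89% were past 1.5-fold, 3.53% with a mean of at least 100, 2.04% with at least 1000, 23.7% past 0.32 and 0.797% at 2-fold. Without division by length, 4 of 10 members kept their rank. Of the other pathway genes, 5 were past 1.5-fold, 10 past 0.32, 3 after length centring and 3 with a mean of at least 100. Leaving out 1 library each, the log2 ratio of library means ranged from -0.93 to -0.66 for Igf2bp1 and from -1.24 to -0.56 for Pappa2. No paired analysis was possible because the table gives 1 value per genotype and the recovered libraries carry no replicate number. The depth of the other 9 members in each library is unknown.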
